A study of Rattus norvegicus with 10 samples.

Results

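Zinc finger protein genes were followed in hippocampal RNA of transgenic rats fed ibudilast or plain chow. The members are the rows of the count table whose symbol begins with Zfp or Znf followed by a digit. There were 179 of them among 17168 rows, all 179 spelled Zfp, since 0 symbols began with Znf. The name covers mostly proteins of the Krüppel type, in which cysteine and histidine residues hold a zinc ion and fold a small finger that reads DNA bases. Many of these carry a KRAB domain, which recruits the corepressor TRIM28 and the histone methyltransferase SETDB1 to silence transposons and genes. A few members with the same name bind RNA or act as ubiquitin ligases instead.

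The 10 rats were male TgF344-AD animals, a transgenic line on a Fischer background (genotype Tg-AD), and were 11 months old. The line is known to carry human transgenes of mutant APP and mutant presenilin 1, driven by a prion promoter, and every rat compared here carries them. The 5 untreated rats ate rodent chow and the 5 ibudilast rats ate chow with ibudilast, an inhibitor of cyclic nucleotide phosphodiesterases, for 6 months from 5 months of age. All animals were perfused with phosphate-buffered saline under ketamine and xylazine, and the left hippocampus was sequenced as 1 library per rat. The ibudilast tissue was also kept in RNAlater-ICE and the untreated tissue is not described that way, so treatment and storage cannot be told apart in any value below.

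Library totals ran from 14806796 to 18533512 counts. All 12 hippocampal neuron markers and all 8 interneuron markers were detected in the libraries. Summed hippocampal neuron markers ran from 5880 to 8074 CPM (counts scaled to a common library size, TMM-adjusted) in untreated and from 2099 to 5017 CPM in ibudilast rats, so the groups did not overlap. Summed oligodendrocyte markers ran from 7723 to 15146 CPM and from 15716 to 18651 CPM, again with no overlap. Of the 12 neuron markers 5 fell and 0 rose, and of the 10 oligodendrocyte markers 5 rose and 0 fell. Summed endothelial markers also did not overlap, at 305 to 566 CPM and 149 to 277 CPM, and 5 of 7 fell (71.4%). Summed astrocyte markers ran from 4675 to 6488 CPM and from 3824 to 5477 CPM. Of these, 5 of 7 fell (71.4%), Slc1a2 the most at -1.69 on the log2 scale, while Gfap (0.13) and Aldh1l1 (0.36) did not pass. Microglia markers ran from 446 to 879 CPM and from 375 to 462 CPM, and 4 of 8 fell. Summed interneuron markers overlapped between the groups, at 336 to 587 CPM in untreated and 354 to 524 CPM in ibudilast rats. Of these 8 markers, Pvalb rose (log2 fold change 1.03), Gad1 (-0.69) and Gad2 (-0.90) fell, and 5 did not pass. Choroid plexus markers summed to 7819 CPM in untreated replicate 2 and 7187 CPM in ibudilast replicate 1, and to at most 351 CPM in the other rats. Untreated replicate 3 had the lowest neuron sum of its group, 5880 CPM, and ibudilast replicate 4 the lowest of all, 2099 CPM. In bulk tissue, fewer cells of a type and less RNA per cell cannot be told apart, and the part of these marker shifts in the results below was not tested.

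More zinc finger genes rose than fell with ibudilast. Of the 178 members tested, 62 (34.8%) were higher and 31 (17.4%) lower when edgeR's quasi-likelihood test was read at a Benjamini-Hochberg adjusted p of 0.05, and 85 did not pass. Over all 12355 genes tested, 47.1% passed, with 24.3% higher and 22.8% lower, beside 52.2% of members. The groups did not overlap for 56 members on the higher side (31.5%, against 18.0% of all genes) and for 23 on the lower side (12.9%, against 15.4%). The member left out, Zfp352, had 0 counts in every library.

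Most of the changes were small. The 62 higher members had log2 fold changes from 0.27 to 2.13 with a median of 0.55, and the 31 lower members from -1.60 to -0.26 with a median of -0.46. At least 1.5-fold changes were reached by 29 higher members (16.3%, against 11.3% of all genes) and by 8 lower members (4.49%, against 11.6%). Changes of at least 2-fold were called for 6 higher (3.37%, against 4.65%) and 2 lower members (1.12%, against 3.04%). The median log2 fold change over all members tested was 0.07, beside 0.02 over all genes. At the threshold, Zfp978 lay just inside with an adjusted p of 0.0445 and Zfp503 just outside with 0.0509. Spread between rats was modest, with a median coefficient of variation of 10.9% in untreated and 10.3% in ibudilast rats for members, against 13.9% and 13.6% for all genes.

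**Figure D1:**
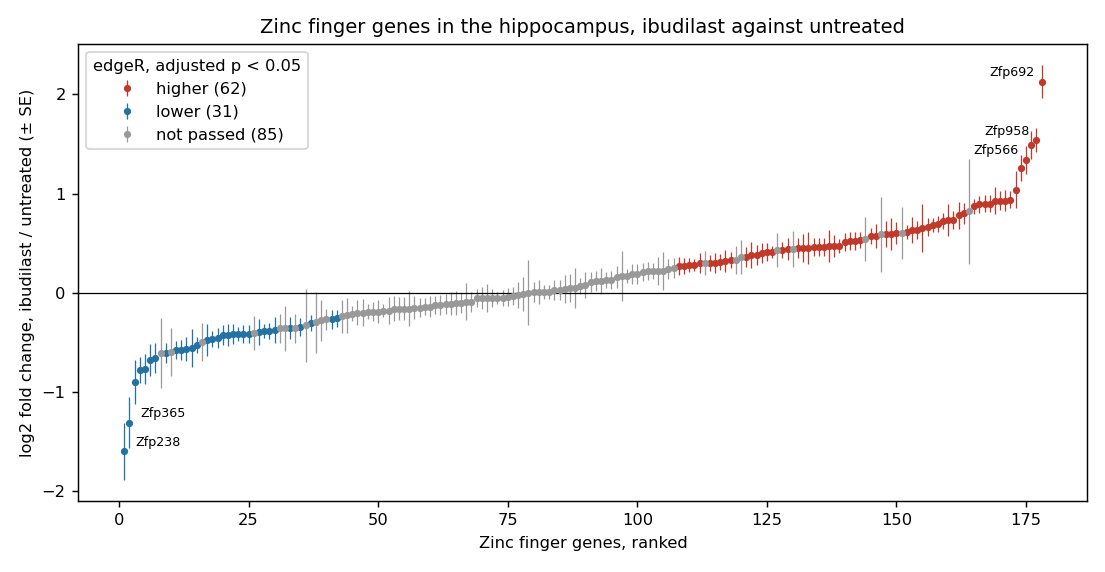
Log2 fold change of ibudilast against untreated rats (vertical axis, with SE) for the 178 zinc finger genes tested, ranked along the horizontal axis and coloured by the edgeR call. Zfp692 stands at 2.13 and Zfp238 at -1.60, while most genes lie within 1 log2 unit of 0.

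Among the rises, Zfp692 was the largest. It encodes AREBP, a repressor known to bind the promoter of a gluconeogenesis gene. Its level was 10.8, 12.1, 20.2, 10.7 and 11.4 CPM in untreated replicates 1 to 5, and 57.2, 55.0, 56.6, 61.0 and 55.7 CPM in the ibudilast rats. Every ibudilast rat lay above every untreated rat, and untreated replicate 3 lay above the rest of its group. The log2 fold change was 2.13 ± 0.17 (SE, n = 5 each, adjusted p = 1.81e-05), which is 4.38-fold. In the RefSeq annotation of the GRCr8 build, Zfp692 ends 14 bases inside Zfp672, a zinc finger gene on the opposite strand. Zfp672 rose by less, from 18.5 ± 2.05 to 26.6 ± 1.46 CPM (SD, log2 fold change 0.52, adjusted p = 0.000733). Whether the authors' counting used strand is not given in the sources used here.

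The next largest rises were Zfp958 and Zfp61. Zfp958 was at 27.3 to 40.3 CPM in untreated rats, with untreated replicate 3 highest, and at 78.1 to 96.6 CPM in ibudilast rats. Its log2 fold change was 1.54 ± 0.12 (SE, adjusted p = 1.49e-05). Zfp61 was at 18.4, 20.4, 31.3, 19.9 and 21.3 CPM in the untreated animals and 58.7, 58.0, 61.4, 67.3 and 66.9 CPM in ibudilast rats. Neither gene overlapped between the groups, and Zfp61 had whole-number counts in all 10 libraries while Zfp958 did not in any.

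The promoters of the 2 largest rises are printed because these members changed most. The 250 bases before the RefSeq start (GRCr8) are in lower case, and capitals mark a match to the motif of ZNF143, an activator of many promoters. Zfp692 has 1 such match, 35 bases before its start, and Zfp958 has 0 matches to any of the 5 motifs searched.
Zfp692 (chr10:42988696-42988945, + strand): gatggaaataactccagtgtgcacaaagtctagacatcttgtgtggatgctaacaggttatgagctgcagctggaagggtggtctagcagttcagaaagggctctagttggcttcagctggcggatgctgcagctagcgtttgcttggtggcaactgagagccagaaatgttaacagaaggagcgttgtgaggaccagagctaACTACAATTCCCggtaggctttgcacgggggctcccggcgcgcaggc
Zfp958 (chr12:8750980-8751229, + strand): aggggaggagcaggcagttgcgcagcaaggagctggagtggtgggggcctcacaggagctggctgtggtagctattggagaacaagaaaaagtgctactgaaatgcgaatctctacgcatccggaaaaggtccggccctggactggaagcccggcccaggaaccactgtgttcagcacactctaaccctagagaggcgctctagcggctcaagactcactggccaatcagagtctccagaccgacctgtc

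Zfp566 rose from 5.41 ± 1.05 to 13.7 ± 0.897 CPM (SD, n = 5) and Zfp202 from 4.26 ± 0.704 to 10.2 ± 0.866 CPM. ZNF202, the human counterpart of the latter, is known as a repressor of lipid metabolism genes. Their log2 fold changes were 1.34 ± 0.14 and 1.26 ± 0.13 (SE). Zfp51 rose from 3.18 ± 0.312 to 6.56 ± 1.73 CPM, with 4.23 CPM in ibudilast replicate 2 and 9.10 CPM in ibudilast replicate 4. Zfp384, a nuclear matrix transcription factor also known as CIZ, rose from 34.5 ± 4.43 to 66.3 ± 4.65 CPM. Zfp598, a ubiquitin ligase that marks collided ribosomes, rose from 37.5 ± 4.67 to 71.4 ± 7.24 CPM. Zfp347 and Zfp775, both at a log2 fold change of 0.93, completed the 10 largest rises.

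The 2 members that fell most are brain genes of known function and were both measured with many counts. Zfp238, now named Zbtb18 and also called RP58, is a repressor needed for cortical and hippocampal neuron development. Its values were 271, 279, 119, 244 and 298 CPM in the untreated animals and 89.2, 91.9, 83.2, 38.9 and 94.7 CPM in ibudilast rats. The groups did not overlap, although untreated replicate 3 and ibudilast replicate 4, the rats with the lowest neuron marker sums of their groups, were also lowest here. The log2 fold change was -1.60 ± 0.29 (SE, adjusted p = 0.00117), and -1.59 ± 0.09 (adjusted p = 1.79e-06) once the 4 libraries singled out above by their markers, replicates 2 and 3 of the untreated and 1 and 4 of the ibudilast group, were left out.

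Zfp365 encodes DBZ, a binding partner of the neurodevelopmental protein DISC1. Its values were 224, 189, 407, 288 and 217 CPM in the untreated animals and 94.8, 144, 113, 59.1 and 125 CPM in ibudilast rats. Untreated replicate 3 was the highest rat here, not the lowest as for Zfp238. The log2 fold change was -1.31 ± 0.26 (adjusted p = 0.00232), and -0.93 ± 0.13 without the same 4 libraries (adjusted p = 0.000292).

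Smaller falls made up the rest of the 10 largest. Zfp483 fell from 46.3 ± 8.04 to 27.0 ± 3.27 CPM (SD, n = 5) and Zfp706, a small protein known to repress Klf4 in embryonic stem cells, from 61.2 ± 7.18 to 41.0 ± 3.65 CPM. Zfp37 fell from 22.2 ± 2.03 to 14.6 ± 1.82 CPM and Zfp280b from 13.1 ± 1.17 to 8.74 ± 0.401 CPM. Zfp697, Zfp597, Zfp867 and Zfp800 were below 10 CPM in every rat and fell by 0.90, 0.77, 0.68 and 0.66 on the log2 scale.

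**Figure D2:**
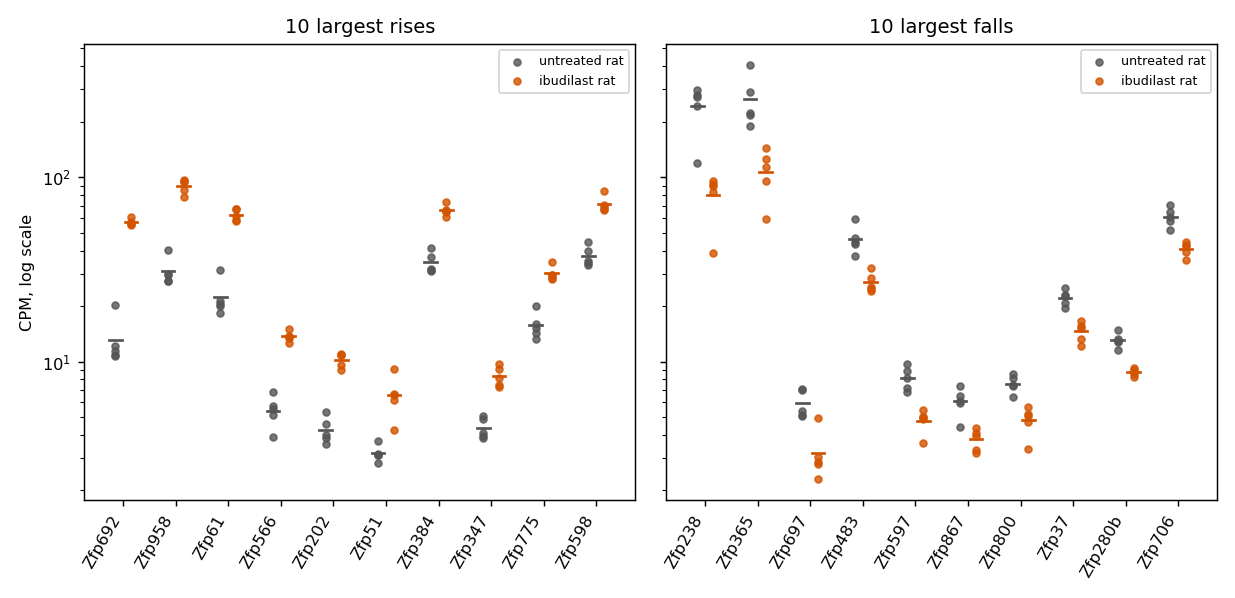
CPM of each rat (points, logarithmic axis) and group means (short lines) for the 10 largest rises and the 10 largest falls among zinc finger genes that passed the test. Zfp692 lies at 10.7 to 20.2 CPM in untreated and 55.0 to 61.0 CPM in ibudilast rats, and Zfp238 at 119 to 298 and 38.9 to 94.7 CPM.

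The libraries did not contribute equally to the spread. Untreated replicate 3 was the highest untreated rat for 27 of the 62 higher members and the lowest untreated rat for 18 of the 31 lower members. Ibudilast replicate 4 was the highest ibudilast rat for 26 of the 62 and the lowest for 18 of the 31. Both also stand apart in neuron markers, as given above. The same counts over all genes that passed were not made. Across the whole table, chi-square per gene between 2 libraries was 73.3 to 163 with untreated replicate 3 and 11.6 to 58.4 between other untreated rats. It was 89.2 to 99 with ibudilast replicate 4 and 14 to 55.9 between other ibudilast rats, so both differ well beyond the zinc finger genes.

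Members with roles in neural development fell or did not pass. Of 9 tested under their listed symbols, 5 fell (55.6%, against 22.8% of all genes) and 0 rose (against 24.3%). Their median log2 fold change was -0.42. Besides Zfp238 and Zfp365, the falls were Zfp608 (27.5 ± 2.71 to 21.5 ± 3.03 CPM), Zfp609, a partner of the cohesin loader Nipbl (86.0 ± 7.02 to 65.8 ± 4.72 CPM), and Zfp644, a partner of histone methyltransferases (54.2 ± 5.87 to 40.6 ± 3.44 CPM). The call of Zfp608 was lost with library size alone (-0.29, adjusted p = 0.0875). Zfp423, a cofactor of neural precursors, was at -0.60 ± 0.24 (adjusted p = 0.0620). Its untreated values were 110 CPM in replicate 3 and 45.7 to 65.9 CPM in the rest, and it passed without untreated replicate 2 or 5 (both -0.71, adjusted p = 0.0453 and 0.0390) or without ibudilast replicate 4 (-0.76, adjusted p = 0.0280), with DESeq2 (-0.62, adjusted p = 0.0307) and without the 4 libraries (-0.60, adjusted p = 0.00332). Zfp503, known from striatal development, was at -0.50 ± 0.19 (adjusted p = 0.0509). It passed with RLE factors, DESeq2 and limma-voom (adjusted p = 0.0456, 0.0274 and 0.0279), without ibudilast replicate 4 (-0.73, adjusted p = 0.00198) and without the 4 libraries (-0.63, adjusted p = 0.00345). Zfp521 was at -0.36 (adjusted p = 0.221) and passed without ibudilast replicate 4 (-0.59, adjusted p = 0.0279) and without the 4 libraries (-0.67, adjusted p = 0.0127). Zfp292 was at 0.13 (adjusted p = 0.223). Zfp191 was listed by its current symbol, Zfp24, and so is not among the 9. It also fell (-0.42 ± 0.10, adjusted p = 0.00744).

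The 3 members of the CCCH type, which bind AU-rich elements and speed mRNA decay, did not pass. Zfp36, also called tristetraprolin, averaged 18.0 ± 8.02 CPM in the untreated group and 17.9 ± 7.97 CPM with ibudilast (log2 fold change 0.00 ± 0.33). Untreated replicate 3, at 31.8 CPM, and ibudilast replicate 4, at 31.3 CPM, were the highest of their groups. Zfp36l1 was at -0.41 ± 0.17 (adjusted p = 0.0744) and passed without ibudilast replicate 1 (-0.52, adjusted p = 0.0364) or 4 (-0.50, adjusted p = 0.0456), with DESeq2 (-0.43, adjusted p = 0.0481) and without the 4 libraries (-0.45, adjusted p = 0.00544). Zfp36l2 was at -0.16 ± 0.18. Among listed genes of the CCR4-NOT complex and other decay partners of CCCH proteins, 4 of 15 rose (26.7%, against 24.3% of all genes). Another 7 fell (46.7%, against 22.8%), and the median log2 fold change was -0.34. The deadenylase subunit gene Pan2 rose from 12.3 ± 1.66 to 26.8 ± 2.50 CPM, while Cnot6l and Cnot6, deadenylases of the CCR4-NOT complex, fell by 0.88 and 0.63 and Cnot11 by 0.48 on the log2 scale.

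Of 11 members listed for links to RNA or ribosomes, 3 were higher and 3 lower (27.3% each), near the shares over all genes of 24.3% and 22.8%, and 5 did not pass. Zfp598, above, rose together with Zfp593, a factor of ribosome assembly (13.8 ± 0.618 to 19.9 ± 1.83 CPM), and Zfp346, which binds double-stranded RNA (34.3 ± 2.29 to 43.2 ± 3.56 CPM). Zfp207, which binds spindle microtubules, fell from 62.2 ± 4.83 to 46.6 ± 2.38 CPM and Zfp638, a DNA-binding partner of the HUSH silencing complex, from 98.5 ± 10.3 to 79.2 ± 5.03 CPM. Zfp706, above, also fell, and the roles given here for these 3 falls are not on RNA or ribosomes. Zfp622, a 60S ribosome maturation factor, was at -0.05 ± 0.06 (adjusted p = 0.547). Zfp385a was at 0.60 ± 0.26 (adjusted p = 0.0830). Ibudilast replicate 4 had 289 CPM against 109 to 131 CPM in the rest of its group, and without it the value was 0.22 ± 0.12 (adjusted p = 0.148). Without the 4 libraries named above, it was at 0.40 ± 0.07 (adjusted p = 0.000624). Zfp385b, Zfp385d and Zfp830 were at -0.23, -0.30 and -0.19 and did not pass, although Zfp830 passed without untreated replicate 3 (-0.27, adjusted p = 0.0250).

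Of 13 members tested that act broadly at promoters or chromatin, 3 rose and 3 fell (23.1% each), near the 24.3% and 22.8% over all genes, and 7 did not pass. Zfp384, Zfp219 (46.5 ± 9.10 to 76.9 ± 16.4 CPM) and Zfp57 (14.5 ± 1.32 to 18.6 ± 2.29 CPM) rose. Zfp57 is a KRAB protein that keeps DNA methylation at imprinted loci, and Zfp445, which shares that role, fell from 76.7 ± 7.08 to 58.4 ± 1.15 CPM. Without the 4 libraries, Zfp57 was at 0.31 ± 0.12 (adjusted p = 0.0516). Zfp281, a stem cell transcription factor, fell from 26.8 ± 1.30 to 18.5 ± 1.87 CPM. Zfp516, a regulator of brown fat genes, was at -0.56 ± 0.19 (adjusted p = 0.0320), a call lost without untreated replicate 1, 2 or 3 or ibudilast replicate 2, 3 or 5 (adjusted p = 0.0549 to 0.0732), with upper-quartile factors (0.0589) and with library size alone (0.0807). Zfp91, Zfp143, Zfp148, Zfp217, Zfp518a, Zfp592 and Zfp703 were at 0.07, -0.14, -0.16, -0.33, -0.05, 0.01 and -0.18. Zfp217 passed without the 4 libraries (-0.72 ± 0.22, adjusted p = 0.0180).

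Zfp180 and Zfp91 were among the 5 members with the most counts and did not pass. Zfp180 averaged 283 ± 42.8 CPM in the untreated group and 247 ± 34.6 CPM with ibudilast (log2 fold change -0.20 ± 0.13, adjusted p = 0.233). Zfp91, a ubiquitin ligase, was at 247 ± 21.5 and 258 ± 14.7 CPM (0.07 ± 0.08, adjusted p = 0.518).

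Genes of the corepressor machinery were measured beside the zinc finger genes. Trim28, named after its values were seen because KRAB domains bind it, averaged 156 ± 15.5 CPM in the untreated group and 151 ± 5.91 CPM with ibudilast (log2 fold change -0.05 ± 0.08, adjusted p = 0.635). Setdb1 rose from 43.4 ± 1.06 to 62.1 ± 1.97 CPM (0.52 ± 0.05, adjusted p = 3.99e-05) and Daxx, a chaperone of histone H3.3, from 24.7 ± 2.32 to 38.2 ± 1.44 CPM. The chromatin remodeller Smarcad1 fell by 0.54 and the HUSH subunit gene Pphln1 by 0.35 on the log2 scale. In that list of KRAB corepressor and heterochromatin genes, 9 of 19 rose (47.4%, against 24.3% of all genes), 4 fell (21.1%, against 22.8%) and the median log2 fold change was 0.05. The rises there include Zfp57, itself a zinc finger member and given above. In the list of NuRD and CtBP corepressor genes, 1 of 14 rose (7.14%), Mbd3 (0.50), and 6 fell (42.9%), with Gatad2b at -0.78, Rbbp7 at -0.42 and Rbbp4 at -0.41.

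Other zinc finger families were counted by their symbol in the count table, where 24.3% of all genes rose and 22.8% fell. Some members belong to these families by current symbol but are not counted in them. Zfp238, Zfp161 and Zfp295 are now Zbtb18, Zbtb14 and Zbtb21, and Zfp167, Zfp192 and Zfp498 are Zkscan7, Zkscan8 and Zscan25. Of these, Zfp238 fell, Zfp167 rose and the others did not pass. Of 34 Zbtb genes, transcription factors with a BTB domain, 5 rose and 11 fell (14.7% and 32.4%). Of 23 Klf and Sp genes, 0 rose and 7 fell (30.4%), and their median log2 fold change was -0.26. Among 16 Zc3h genes, which encode CCCH proteins, 6 rose and 2 fell (37.5% and 12.5%), shares close to those of the members, with the same median log2 fold change of 0.07. Of 21 Zdhhc genes, which encode palmitoyltransferases, 5 rose and 4 fell (23.8% and 19.0%), and of 4 Zscan and Zkscan genes 1 rose and 1 fell. The difference between these families and the members was not tested.

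Many zinc finger genes are recent duplicates, so reads can fit several of them and the estimated counts are then split. Of the 178 members tested, 68 (38.2%) had a count that was not whole in at least 1 library, against 18.5% of all genes. Among those 68, 31 rose and 6 fell (45.6% and 8.82%). The 110 members with whole counts in all libraries had 31 higher and 25 lower (28.2% and 22.7%), which lie near the shares over all genes, 24.3% and 22.8%. Over all genes with a count that was not whole, 29.8% rose and 19.0% fell. Of the 10 largest rises, Zfp61, Zfp202, Zfp384 and Zfp598 had whole counts throughout, Zfp692 had counts that were not whole in 7 libraries, and Zfp958, Zfp566, Zfp51, Zfp347 and Zfp775 in all 10. Values of the last 6 are therefore uncertain where copies share sequence. Of the 10 largest falls, 7 had whole counts throughout.

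**Figure D3:**
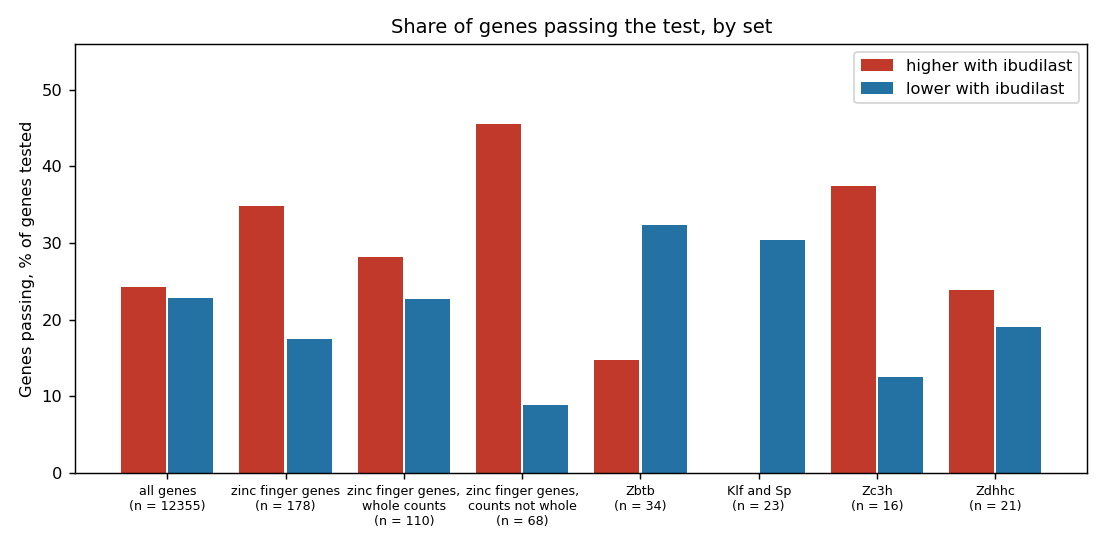
Share of genes tested that passed as higher (red) or lower (blue) with ibudilast, in percent, for all genes, zinc finger genes, zinc finger genes split by whole counts, and other families named by symbol, with the number tested under each. Higher calls are 34.8% of zinc finger genes, 28.2% of those with whole counts and 45.6% of those without.

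Zinc finger genes also lie side by side in the genome. By RefSeq symbols on GRCr8, 43 pairs of tested members were direct neighbours less than 200 kb apart, and 41 members lie on chromosome 1. Between them lay no other tested gene that could be placed by its symbol. Some pairs overlap, Zfp329 with Zfp110 by 60980 bases and Zfp455 with Zfp458 by 76020 bases. Both genes passed in 12 pairs, of which 9 rose together, 0 fell together and 3 went opposite ways. Over all tested genes, both passed in 2314 of 10132 neighbouring pairs. Of these, 985 rose together, 571 fell together and 758 went opposite ways, so 67.2% went the same way, beside 9 of 12 here. Pairs within a run share genes, so the 9 are not independent. On chromosome 1, Zfp112, Zfp111, Zfp61 and Zfp94 follow each other and rose by 0.41, 0.40, 1.49 and 0.43, while Zfp180, which precedes them, was at -0.20. The run Zfp51, Zfp53 and Zfp52 rose by 1.04, 0.59 and 0.45. Zfp14 and Zfp566 rose by 0.61 and 1.34, and their neighbours Zfp74 and Zfp260 were at -0.12 and -0.16. The opposite pairs were Zfp597 with Zfp263 (-0.77 and 0.46), Zfp867 with Zfp496 (-0.68 and 0.46) and Zfp445 with Zfp167 (-0.39 and 0.38).

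**Figure D4:**
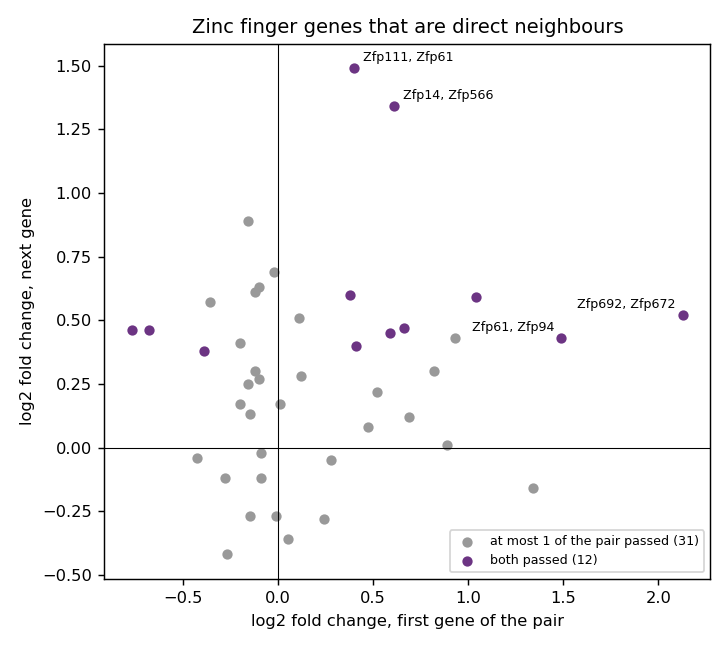
Log2 fold change of the first gene (horizontal axis) against the next gene (vertical axis) for the 43 pairs of zinc finger genes that are direct neighbours, with pairs in which both passed in purple. Of these 12 pairs, 9 lie at the upper right and 3 at the upper left.

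Promoters were searched for 5 motifs on both strands, chosen after the fold changes were seen. Of the 178 members tested, 136 had an entry among the RefSeq promoters used here. The ZNF143 motif was in 17 of the 136 (12.5%), against 3.77% of 9462 tested genes and 1.83% of all 24206 promoters of that length. It was in 10 of 53 higher members (18.9%), 2 of 24 lower members (8.33%) and 5 of 59 that did not pass (8.47%). The same split over all tested genes was not counted, and a link between motif and direction was not tested. The cAMP response element TGACGTCA, the site of CREB, was in 3 of 136 (2.21%, against 2.92% of tested genes), of which 2 rose and 0 fell. The ETS motif CCGGAAGT was in 5.88%, against 6.63%, and the NRF1 motif in 8.82%, against 8.71%. The GC box GGGCGG was in 44.1%, against 57.8%. Matches of different motifs overlapped in 0 member promoters. A match describes letters only and does not show binding.

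The ZNF143 matches are printed for the members that changed, because the motif was in 12.5% of member promoters against 3.77% over tested genes. Capitals mark the match, each window has 30 bases where the match reads forward, and positions are on GRCr8. The matches of all 17 members lay 21 to 190 bases before the start. Those from Zfp692 to Zfp112, which has 2 matches, belong to members that rose, and the last 2 to members that fell. Zfp143 itself, the rat gene of the factor, was at 10.9 to 13.1 CPM in the untreated group and 10.3 to 12.1 CPM with ibudilast (log2 fold change -0.14 ± 0.09, adjusted p = 0.212).
Zfp692 (chr10:42988890-42988919, + strand): ccagagctaACTACAATTCCCggtaggctt
Zfp566 (chr1:94460778-94460807, - strand): gtgcctcggACTACATTTCCCagaatgctc
Zfp691 (chr5:138070451-138070480, - strand): aacatcaggACTACAACTCCCagcatgccg
Zfp286a (chr10:47960447-47960476, + strand): aggctaggaACTACAACTCCCagaagcaac
Zfp14 (chr1:94413208-94413237, - strand): ccaccatggACTACATTTCCCacatgcctc
Zfp879 (chr10:35659730-35659759, + strand): ccattgtggACTACATTTCCCagaaggcgc
Zfp110 (chr1:82517997-82518026, - strand): ctggtccgaACTACAACTCCCagacgcccc
Zfp455 (chr2:86426883-86426912, - strand): gtggtgtagACTACATCTCCCagaagtctg
Zfp94 (chr1:89007614-89007643, + strand): agaatttgaACTACACTTCCCagaatgctc
Zfp112 (chr1:88804765-88804794, - strand): cttacacaaACTACAGTTCCCacatccccc
Zfp112 (chr1:88804670-88804699, - strand): gggtcatgaACTACATTTCCCagaattctc
Zfp317 (chr8:25867478-25867507, + strand): aacttaaagACTACATTTCCCataaaccat
Zfp2 (chr10:35729821-35729850, + strand): gcacgcgggACTACATTTCCCacaaggcca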

How the data were processed

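RNA of the left hippocampus was sequenced from 10 rats, 5 per group, in libraries made with a stranded mRNA kit, per the labels' protocols. The deposited table holds expected counts per gene symbol, not normalized. RSEM 1.2.15, Bowtie2 2.1.0, edgeR, bcl2fastq and the build rn6 appear in the submitters' processing notes with no roles given. The annotation, filters and use of strand are not given in the sources used here. A second deposited table, of scaled values, was not used. Values were rounded for testing, since 12% of them were fractional. The table had 0 rows with no gene name and 0 unmatched columns. No 2 libraries of a group agreed within sampling noise (chi-square per gene at least 11.6).

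The whole table was fitted with edgeR 4.0.16 (R 4.3.3), with filterByExpr, TMM factors, robust quasi-likelihood F tests and Benjamini-Hochberg adjustment over 12355 genes, at 0.05. CPM used TMM-scaled library sizes. On simulated counts, the fit recovered 143 of 199 genes given a log2 change of 1, among 12306 genes, with 5 false calls. Far fewer genes changed there than the 47.1% that passed in the data, so these rates need not hold for the data. Alternatives used limma 3.58.1 and DESeq2 1.42.0. Members, lists and motifs were chosen with earlier results of these data known. Named genes are the 10 largest rises and 10 largest falls that passed (with 1 CPM or more in either group, and the untreated mean above or below each ibudilast rat), members with a listed role, the 5 with most counts, the member with the adjusted p nearest 1, and up to 4 genes per pathway list by smallest p. Of the symbols, 170 are current in RefSeq (GRCr8) and 9 matched an older symbol. Zfp978 and Zfp772 match 1 RefSeq gene, and only Zfp772 was placed. The split by protein domains was not made, since protein sequences were not used here. Gene levels are not compared between genes, as lengths were not used.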

Additional observations from a re-analysis of the deposited data

Results flagged for a closer look

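Among the named members, 104 groups of 5 rats were searched for a rat far from the other 4, and 18 were found. For a single group chance gives about 1 in 20. The groups share the same 10 rats and are not independent, so that rate gives no expected number for the 18. Most of the values were in untreated replicate 3 or ibudilast replicate 4. Untreated replicate 3 was highest for Zfp692 at 20.2 CPM (others 10.7 to 12.1), Zfp958 at 40.3 (27.3 to 29.9), Zfp61 at 31.3 (18.4 to 21.3), Zfp36 at 31.8 (11.1 to 16.8), Zfp36l2 at 125 (67.1 to 80.9), Zfp385a at 132 (90.9 to 98.9) and Zfp219 at 62.5 (40.1 to 44.1). It was lowest for Zfp644 at 44.1 CPM (54.7 to 58.9). Ibudilast replicate 4 was highest for Zfp775 at 34.6 CPM (28.2 to 29.5), Zfp598 at 84.2 (66.6 to 70.4) and Zfp385a at 289 (109 to 131). That rat was lowest for Zfp238 at 38.9 CPM (83.2 to 94.7), Zfp148 at 43.5 (64.4 to 72.0) and Zfp180 at 187 (254 to 274). The other values were Zfp697 at 4.94 CPM and Zfp57 at 22.6 CPM in ibudilast replicate 2, Zfp346 at 38.2 CPM in untreated replicate 1 and Zfp217 at 5.63 CPM in untreated replicate 2.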

How the results depend on the processing

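Counts of higher and lower members were 51 to 70 and 26 to 42 over the other normalizations, tests, low-count filters, replicate block and left-out libraries, against 62 and 31. RLE factors gave 60 and 35, library size alone 69 and 26, DESeq2 63 and 40, limma-voom 64 and 32 and no low-count filter 53 and 32. The shares over all genes moved as well, from 24.3% higher and 22.8% lower as reported. They were 23.3% and 23.9% with RLE factors, 27.6% and 18.6% with library size alone and 24.4% and 25.4% with DESeq2. With limma-voom they were 24.4% and 22.5%, and with no low-count filter 19.2% and 19.6%. Leaving out each rat gave 53 to 61 higher and 26 to 39 lower, with 20.5% to 24.7% and 19.8% to 26.0% of all genes. With the 4 libraries that stood apart left out (untreated 2 and 3, ibudilast 1 and 4), 59 were higher and 42 lower, with 28.3% and 27.4% of all genes. Requiring a change of at least 1.5-fold gave 29 higher, 8 lower and 2826 of all genes, against 5817. Members with whole counts only gave 31 higher and 25 lower of 110 (28.2% and 22.7%, against 34.8% and 17.4% of 178), so the balance moved as well as the number. The same numbers in both groups did not pair the rats: correlations of same-numbered deviations ran from -0.328 to 0.416, and 0 of 5 rats correlated best with its own number. With the replicate block, 51 members were higher, 26 lower and 4726 of all genes passed; Zfp516 then had an adjusted p of 0.0839 and Zfp503 one of 0.0385. No named member changed direction with a call, and 10 of 52 changed their side of the threshold under at least 1 alternative. The planned count over members with a finger found in the protein was not run. With 5 rats per group, the depth and spread limit which small changes can pass.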
